A study of Mus musculus with 8 samples.

Results

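Chemokines and interleukin-6 (IL-6) made by fibroblasts were followed as a group of 10 genes, Ccl2, Ccl5, Ccl7, Cxcl1, Cxcl5, Cxcl10, Cxcl12, Cxcl16, Cx3cl1 and Il6, chosen by symbol. All 10 had a row among the 49492 rows of the expression table. The 8 genes other than Cxcl1 and Cxcl5 passed the filter on low values (1 or more in at least 2 libraries) and were tested with 16232 genes in all. The libraries came from mouse embryonic fibroblasts (MEFs) and measured polyA RNA by sequencing. The MEF lines carried floxed Pontin (Pontin f/f), stably expressed Flag-tagged Pontin from a lentivirus, and lost their own Pontin through a Cre virus. In Pontin WT MEFs the added protein was the wild-type form, and in Pontin RA MEFs 2 arginines that can be methylated were replaced by alanine. Each line was kept in normal medium (CTL) or in glucose-free medium with dialyzed serum (glucose starvation, GS), with 2 libraries in each of the 4 groups. How long the sequenced cells were starved was not given in the sources used here. Pontin WT and Pontin RA MEFs were separate lines, so the line and the form of Pontin cannot be told apart. No label said that the 2 libraries of a group came from separate cultures, so the p-values measure only the spread between these libraries, which may be technical.

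Chemokines are small secreted proteins that draw leukocytes along a gradient through receptors coupled to G proteins. CC and CXC chemokines are named for the spacing of their first cysteines, and many lie in gene clusters. Fibroblasts are known sources of such signals in wounds and inflamed tissue. Inflammatory members such as Ccl2 and Cxcl10 are induced through NF-κB and interferon signalling, whereas Cxcl12 is made steadily by stromal cells. IL-6 is a cytokine that signals through gp130 (Il6st) and Stat3.

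Between 43205841 and 56363034 reads were recovered per library. The values are CPM of the authors' scaled library size, on which 3 reads, taken as the smallest level told from 0, were worth 0.0548 to 0.069. Ruvbl1, which encodes Pontin, went from 28.4 and 27.6 in normal medium to 27.9 and 28.4 under starvation in WT, and from 36.8 and 32 to 45 and 42.9 in RA. These reads do not separate the added from the deleted copy. All 8 fibroblast markers examined were above 1 in at least 1 library, and their summed value was 7543 to 7881 across the normal libraries. The sum stood at 2913 to 2981 in starved WT and 3873 to 3881 in starved RA. By starvation 7 of the 8 were called lower in WT and 5 in RA, where 39.2% and 33.7% of all tested genes were. Of 8 macrophage markers 6 stayed below 1 in all 8 libraries, and Ptprc and Tyrobp did not exceed 3 reads in any. The summed macrophage value, 14.3 to 25.4, came mostly from Csf1r, whose span overlaps Hmgxb3. All 6 neutrophil markers and 7 of 8 lymphocyte markers were below 1 throughout. The summed endothelial value was 1.09 to 1.48 in normal WT and 16.5 to 17.9 in starved WT, mostly through Vwf and Tek, and it stood at 4.02 to 4.42 in starved RA. The part of these markers in the results below was not tested.

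The CC chemokines Ccl2, Ccl7 and Ccl5 recruit monocytes and T cells, Ccl2 and Ccl7 through the receptor Ccr2. In Pontin WT MEFs all 3 were lower under glucose starvation, and in Pontin RA MEFs all 3 were higher. Ccl2 went from values of 143 and 153 in normal medium to 11.0 and 9.68 under starvation in WT, and from 193 and 189.8 to 226 and 220.2 in RA. No 2 groups overlapped, and starved WT lay far below the other 3. Ccl2 was 14.3-fold lower in starved than in normal WT (log2 difference -3.72, SE 0.052, limma BH-adjusted p = 4.32e-19) and 1.17-fold higher in starved than in normal RA (0.22, limma BH-adjusted p = 0.00137). The log2 differences are on the scale of log2(value + 1), which understates the change of low genes, while folds are ratios of mean values. In bulk RNA, fewer cells that make a transcript and less of it per cell cannot be told apart.

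Ccl7 went from 58.6 and 57.8 to 7.54 and 9.87 in WT, and from 69.1 and 70.1 to 127.9 and 126 in RA. The order of the groups was that of Ccl2. Ccl7 was 6.69-fold lower in starved than in normal WT (-2.62, SE 0.077, limma BH-adjusted p = 4.59e-15) and 1.82-fold higher in starved than in normal RA (0.86, limma BH-adjusted p = 3.15e-08). Ccl5 went from 6.74 and 6.97 to 4.02 and 4.38 in WT, and from 12.1 and 11.8 to 27.8 and 26.1 in RA. Its fall in WT was the smaller of the 3 and its rise in RA the larger. Ccl5 was 1.63-fold lower in starved than in normal WT (-0.60, limma BH-adjusted p = 1.17e-05) and 2.25-fold higher in starved than in normal RA (1.11, limma BH-adjusted p = 8.88e-09).

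Cxcl10, a ligand of Cxcr3 that attracts activated T cells and is induced by interferons, showed the same order. Its values went from 53.7 and 52.5 to 6.08 and 5.19 in WT, and from 134 and 137 to 212 and 209 in RA. Cxcl10 was 9.43-fold lower in starved than in normal WT (-3.03, SE 0.056, limma BH-adjusted p = 1.22e-17) and 1.56-fold higher in starved than in normal RA (0.63, limma BH-adjusted p = 2.75e-08). Every group was apart from its neighbours, and RA exceeded WT in both media. Il6 rested on fewer reads, going from 96 and 122 reads to 59 and 58 in WT, and from 232 and 234 to 307 and 388 in RA. Its values were thus 2.09 and 2.46 against 1.24 and 1.06 in WT, and 5.33 and 4.53 against 6.01 and 8.01 in RA. Il6 fell in WT by 0.61 (1.98-fold, limma BH-adjusted p = 7.70e-04) and was higher in starved than in normal RA by 0.43 (1.42-fold, limma BH-adjusted p = 0.0123). The latter call rested on single libraries: the difference was 0.33 without replicate 2 of normal RA (limma BH-adjusted p = 0.101) and 0.24 without replicate 2 of starved RA (limma BH-adjusted p = 0.200).

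**Figure D1:**
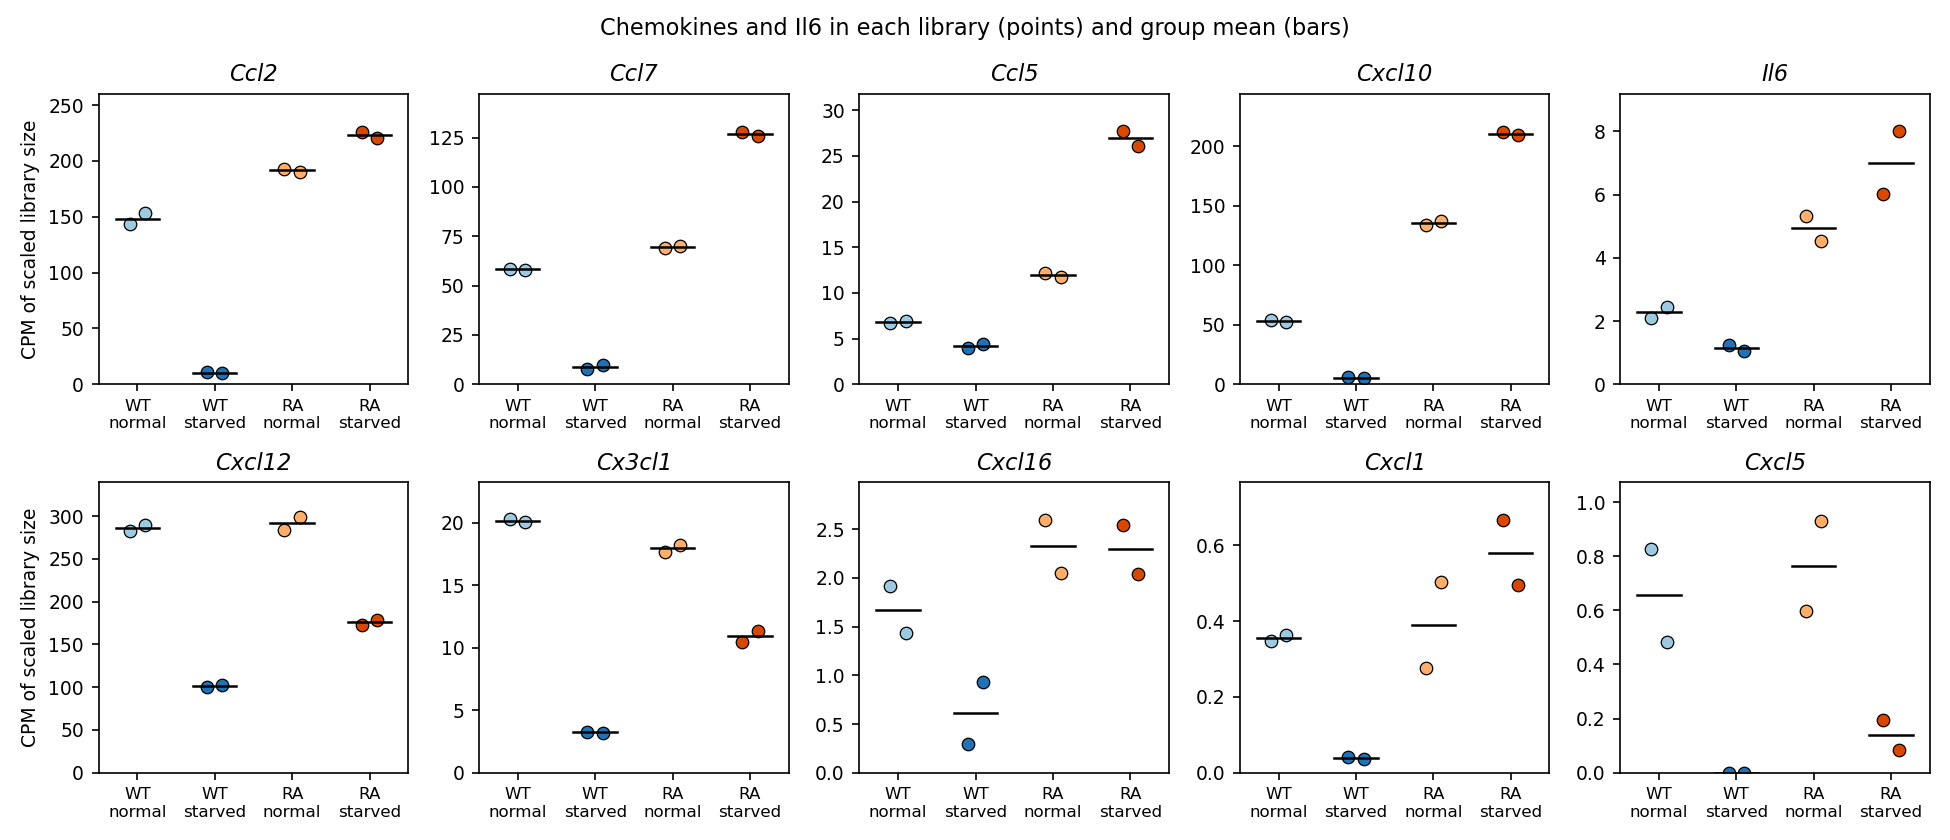
Values of the 10 genes in each library (points, CPM of the scaled library size on linear axes from 0) and group means (bars, n = 2 libraries), for Pontin WT and Pontin RA MEFs in normal and glucose-free medium. Starved WT is the lowest group in every panel; Ccl2, Ccl7, Ccl5, Cxcl10 and Il6 are highest in starved RA, whereas Cxcl12 falls from between 284 and 299 to between 173 and 179 in RA.

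Promoters are shown for Cxcl10 and Il6, called higher by starvation in RA, and for Cxcl12, called lower in both lines. Their letters are set side by side, although the Il6 call rested on single libraries. RefSeq (GRCm38.p6) gave windows from 250 bases before to 50 after the start for 5 of the 10 genes, Il6, Cxcl1, Cxcl10, Cxcl12 and Cx3cl1. Both strands of each window were searched for an interferon-stimulated response element (ISRE) core (GAAANNGAA), an NF-κB site, an AP-1 site (TGANTCA), a C/EBP site (TTGCNNAA) and a FOXO site (GTAAACA). Capitals mark the matches, written 5′ to 3′ along the strand of the gene. The Cxcl10 window is chr5:92348840-92349139 on the minus strand, that of Il6 is chr5:30012864-30013163 on the plus strand, and that of Cxcl12 is chr6:117168285-117168584 on the plus strand.
Cxcl10: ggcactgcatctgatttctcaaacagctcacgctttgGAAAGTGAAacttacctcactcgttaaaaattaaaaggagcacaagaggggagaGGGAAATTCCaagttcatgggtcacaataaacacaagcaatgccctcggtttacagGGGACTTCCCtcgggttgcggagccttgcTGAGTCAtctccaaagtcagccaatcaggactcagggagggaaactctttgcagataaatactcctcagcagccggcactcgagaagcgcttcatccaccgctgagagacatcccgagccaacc
Il6: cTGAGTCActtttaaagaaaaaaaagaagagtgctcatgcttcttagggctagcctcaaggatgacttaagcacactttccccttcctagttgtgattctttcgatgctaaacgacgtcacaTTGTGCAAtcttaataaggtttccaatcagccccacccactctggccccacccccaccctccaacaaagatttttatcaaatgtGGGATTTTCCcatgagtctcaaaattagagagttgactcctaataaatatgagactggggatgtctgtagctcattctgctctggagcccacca
Cxcl12: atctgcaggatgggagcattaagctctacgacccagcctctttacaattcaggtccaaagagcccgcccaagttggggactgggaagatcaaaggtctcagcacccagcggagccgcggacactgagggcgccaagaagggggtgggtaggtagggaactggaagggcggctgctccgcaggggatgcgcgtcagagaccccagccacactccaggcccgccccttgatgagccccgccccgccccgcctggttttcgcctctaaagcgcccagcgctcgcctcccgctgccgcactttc
The Cxcl10 window held an ISRE core, with its first base at -213 from the start, NF-κB sites at -159 and -103, and an AP-1 site at -74. The Il6 window held an NF-κB site at -44, a C/EBP site at -128 on the opposite strand, and an AP-1 site at -249. The Cxcl1 window held overlapping NF-κB sites, at -71 on the strand of the gene and at -70 on the opposite strand. The Cxcl12 and Cx3cl1 windows held none of the 5 motifs, and no window of the 5 held the FOXO site. Of the 32851 mouse promoter windows, 8.56% held the ISRE core, 4.51% the NF-κB site, 7.81% the AP-1 site, 10.8% the C/EBP site and 3.65% the FOXO site. A match is a description of letters, and no match says only that they are not in this window.

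**Figure D2:**
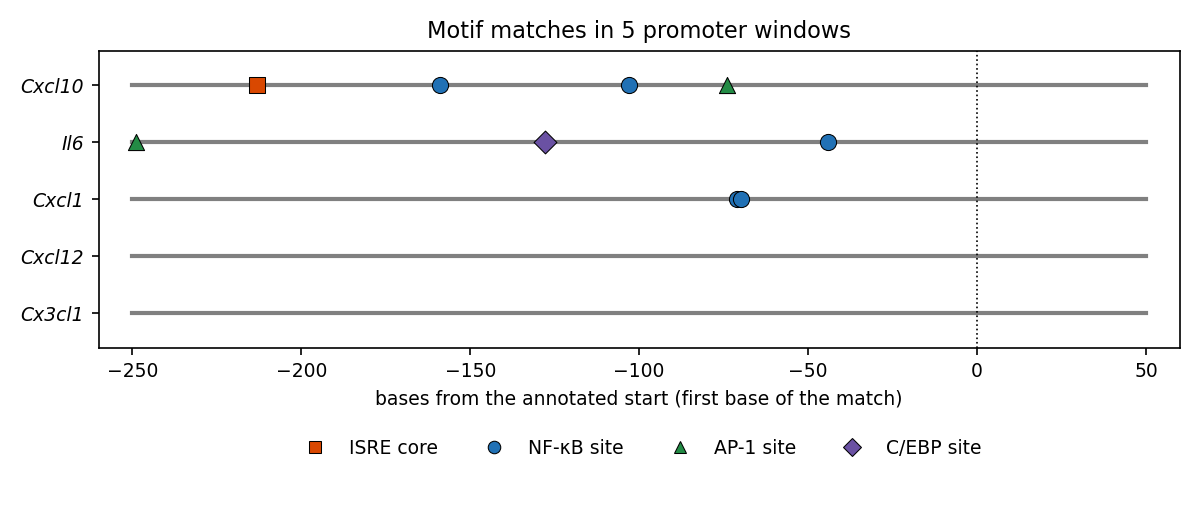
Position of motif matches in the 5 promoter windows, in bases from the annotated start (dotted line), one line per gene and one symbol per motif. Cxcl10 holds 4 matches, from -213 to -74, and Cxcl12 and Cx3cl1 hold none.

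Cxcl12, Cx3cl1 and Cxcl16 differ from the other members in kind. Cxcl12 is the stromal ligand of Cxcr4, and Cx3cl1 and Cxcl16 are made as membrane proteins that are cut from the cell surface. Cxcl12 went from 283 and 290.2 in normal medium to 101 and 103 under starvation in WT, and from 284 and 299 to 173 and 179 in RA. The normal groups of Cxcl12 overlapped, and both starved groups were below them. Cxcl12 was 2.82-fold lower in starved than in normal WT (-1.48, SE 0.039, limma BH-adjusted p = 1.03e-15) and 1.66-fold lower in starved than in normal RA (-0.73, limma BH-adjusted p = 3.71e-11). Cx3cl1 went from 20.3 and 20.1 to 3.23 and 3.22 in WT, and from 17.7 and 18.3 to 10.5 and 11.4 in RA. It therefore also fell in both lines, by 6.26-fold in WT (-2.33, limma BH-adjusted p = 1.07e-13) and 1.65-fold in RA (-0.67, limma BH-adjusted p = 2.57e-06).

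Cxcl16, the ligand of Cxcr6, rested on few reads, 88 and 71 against 14 and 51 under starvation in WT, and 113 and 106 against 130 and 99 in RA. Its values went from 1.91 and 1.43 to 0.293 and 0.932 in WT, and from 2.60 and 2.05 to 2.55 and 2.04 in RA. The starved WT libraries lay below all others but differed widely from each other, and the RA groups overlapped. Cxcl16 was lower in starved than in normal WT (log2 difference -0.75, 2.73-fold, limma BH-adjusted p = 9.07e-04). It was 1.79-fold lower without replicate 1 and 5.70-fold lower without replicate 2 of starved WT (limma BH-adjusted p = 0.0310 and 9.72e-05). In RA the difference was -0.01 (95% interval -0.39 to 0.36, limma BH-adjusted p = 0.953). The span of Cxcl16 shares 552 bases with Zmynd15 on the opposite strand, which had 12 to 74 reads per library, and reads there cannot be told apart.

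Cxcl1 and Cxcl5, ligands of Cxcr2 that attract neutrophils, did not reach the level for testing. Cxcl1 went from 16 and 18 reads to 2 and 2 in WT, and from 12 and 26 to 34 and 24 in RA. In a fit with no filter on low values Cxcl1 was lower in starved than in normal WT (log2 difference -0.38, limma BH-adjusted p = 0.00738), and the difference in RA was 0.19 (limma BH-adjusted p = 0.148). Cxcl5 went from 38 and 24 reads to 0 and 0 in WT, and from 26 and 48 to 10 and 4 in RA. With a floor of 3 reads per library set for starved WT, Cxcl5 was 11.1-fold lower there than in normal WT. In the same fit Cxcl5 was also lower in starved than in normal RA (-0.63, limma BH-adjusted p = 0.00402).

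Set side by side, the starvation responses separated the genes within RA but not within WT. In WT 8 of 8 tested members were called lower, where 39.2% of all tested genes were lower and 39.3% higher, with a median log2 difference of -1.91 against 0.00 over all tested genes. In RA 5 of the 8 were called higher, Ccl2, Ccl5, Ccl7, Cxcl10 and Il6, where 35% of all tested genes were. Another 2, Cxcl12 and Cx3cl1, were called lower, where 33.7% of all genes were. The median over the members in RA was 0.32, against 0.01 over all tested genes. A fall in WT with a rise in RA was called for 488 genes, or 3.01% of those tested, and these 5 members were among them. The WT and RA responses share no library.

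**Figure D3:**
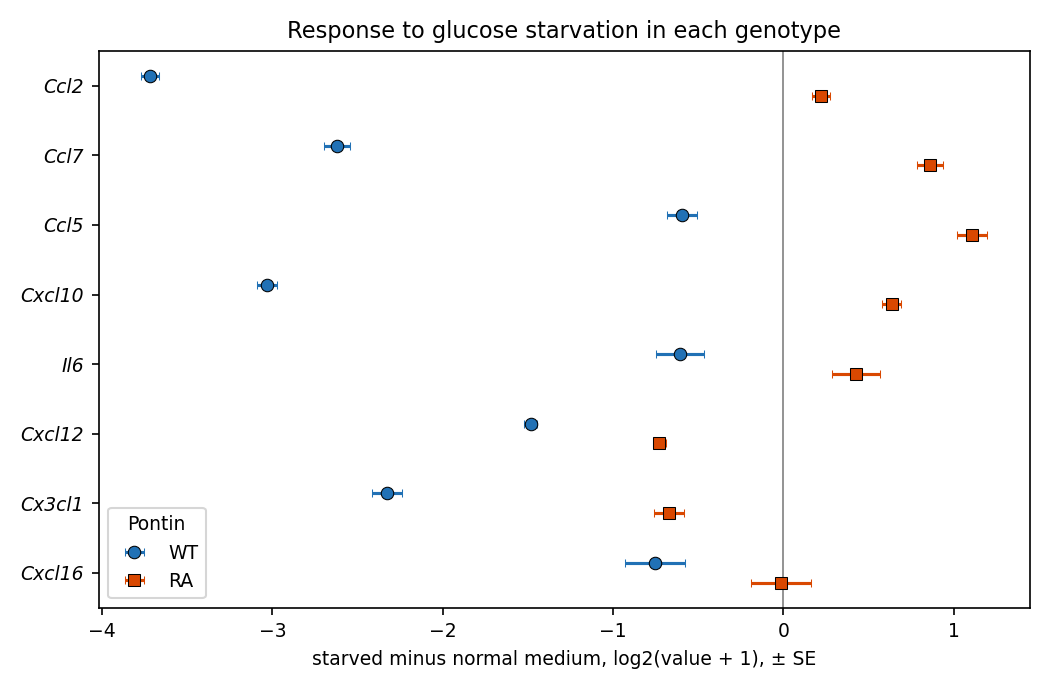
Log2 difference between starved and normal medium (x axis, log2(value + 1), ± SE from limma) for the 8 tested genes in Pontin WT (circles) and Pontin RA MEFs (squares). All 8 circles lie below 0, between -3.72 for Ccl2 and -0.60 for Ccl5, whereas the squares run from -0.73 for Cxcl12 to 1.11 for Ccl5.

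Before starvation the lines already differed in the inflammatory members. In normal medium 5 of the 8 tested members were called higher in RA, where 6.68% of all tested genes were, and none was called lower, where 2.95% were. Cxcl10 was 2.55-fold higher in RA (1.33, SE 0.056, limma BH-adjusted p = 4.39e-11), the 20th largest difference of all tested genes. Il6 was 2.17-fold higher (0.86, SE 0.14, limma BH-adjusted p = 6.96e-04), Ccl5 1.74-fold (0.72, limma BH-adjusted p = 4.32e-05) and Ccl2 1.29-fold (0.37, limma BH-adjusted p = 1.97e-04). These 4 kept their call without any 1 library. Ccl7 was 1.2-fold higher at the edge of the threshold (0.25, limma BH-adjusted p = 0.0477), and this call was lost, with adjusted p-values of 0.0705 to 0.171, on leaving out either normal WT, either normal RA or either starved RA library. Not called were Cxcl12 (0.03, 95% interval -0.06 to 0.11), Cx3cl1 (-0.16, -0.34 to 0.02) and Cxcl16 (0.32, -0.06 to 0.69). Over all tested genes, the share of the calls between the lines in normal medium that were higher in RA was 69.4% on the deposited scale, and 40.5% after total-read scaling. The members called in normal medium stayed higher in RA under each scaling, Ccl7 without its call.

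Under glucose starvation the 8 tested members were all called higher in RA, where 30.8% of all tested genes were, with a median log2 difference of 2.16 against -0.01 over all tested genes. Cxcl10 was 37.4-fold higher in starved RA than in starved WT (log2 difference 5.0, SE 0.056, limma BH-adjusted p = 2.78e-20), Ccl2 21.5-fold (4.31, limma BH-adjusted p = 7.31e-20) and Ccl7 14.6-fold (3.73, limma BH-adjusted p = 9.35e-17). The differences of Ccl5 and Il6 were 6.41-fold and 6.11-fold. The smallest ratio was that of Cxcl12, at 1.73-fold (0.78, limma BH-adjusted p = 2.31e-11), with 3.39-fold for Cx3cl1. Cxcl16 was 3.75-fold higher, and this ratio was 2.46 without replicate 1 and 7.82 without replicate 2 of starved WT (limma BH-adjusted p = 0.00212 and 1.58e-05). Cxcl5, with 10 and 4 reads in starved RA, was 2.37-fold above the floor of 3 reads per library used for starved WT. Without the filter its log2 difference of 0.19 was not called (limma BH-adjusted p = 0.324). Without the filter Cxcl1 was higher in starved RA by 0.60 (limma BH-adjusted p = 0.00106). Its mean value was 0.0392 in starved WT (2 and 2 reads) and 0.581 in starved RA (34 and 24 reads). Among the fibroblast markers 7 of 8 were called higher in starved RA, with Dcn at 2.09, Col1a2 at 1.74 and Col1a1 at 1.64, and Vim was called lower (-0.23). The part of this shift in the difference of the chemokines was not tested.

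The test of whether the response itself differed (the interaction, RA response minus WT response) was called positive for all 8 tested members, where 24.5% of all tested genes were called positive and 26.1% negative. Its median was 1.68 over the members and -0.01 over all tested genes. Ccl2 (3.94, SE 0.074, limma BH-adjusted p = 1.70e-16), Cxcl10 (3.67, limma BH-adjusted p = 9.74e-16) and Ccl7 (3.48, limma BH-adjusted p = 1.07e-13) ranked 8, 18 and 28 by size among the 16232 genes. The interaction was 1.70 for Ccl5 and 1.65 for Cx3cl1, which were nearly alike in size although Ccl5 rose and Cx3cl1 fell in RA. It was 1.03 for Il6 (SE 0.20, limma BH-adjusted p = 3.56e-04) and 0.76 for Cxcl12. That of Cxcl16 was 0.74 (limma BH-adjusted p = 0.0204), and it fell to 0.45 without replicate 1 of starved WT (limma BH-adjusted p = 0.131). Without replicate 1 of normal WT, replicate 2 of normal RA or replicate 1 of starved RA, the Cxcl16 call was also lost, with adjusted p-values of 0.0716 to 0.0847.

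The members' neighbours in the gene clusters were mostly low. Ccl2 and Ccl7 are neighbours on chromosome 11, followed by Ccl11, Ccl12, Ccl8 and Ccl1, which did not exceed 0.431 in any library. Ccl5 lies in another cluster on chromosome 11 beside Ccl9, Ccl6, Ccl3 and Ccl4. Of these Ccl9 fell in both lines, by 1.01 in WT and by 0.60 in RA (limma BH-adjusted p = 2.38e-06 and 7.51e-04). Starved WT libraries held only 2 and 4 reads of Ccl9 (mean value 0.0575), against 50 and 58 reads in normal WT (mean 1.13). Starved RA libraries kept 28 and 32 reads (mean 0.605), against 60 and 76 in normal RA (mean 1.43). The log2(value + 1) scale therefore understates the fall of Ccl9 more in WT than in RA. Ccl3, Ccl4 and Ccl6 did not exceed 0.384. Cxcl1 and Cxcl5 lie in the cluster on chromosome 5 with Cxcl2, whose values were at most 0.862. Cx3cl1 lies between Ccl22 and Ccl17 on chromosome 8. Across the 8 libraries, which share the 4 group means, the correlation of log2 values between members ran from 0.301 for Ccl5 and Cxcl12 to 0.985 for Cxcl12 and Cx3cl1, and was 0.976 for Ccl2 and Ccl7.

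Other chemokine ligands were mostly at low levels. Of 29 on the list, 23 were below 1 in all 8 libraries, 6 of them at 0 throughout, and 5 were tested. The interaction was called positive for 2 of these 5, Cxcl11 and Ccl20, and negative for none, beside 24.5% and 26.1% of all tested genes. Cxcl11, which shares the receptor Cxcr3 with Cxcl10, went from 44 and 56 reads to 0 and 0 in WT, and from 126 and 154 to 268 and 286 in RA. With a floor of 3 reads per library set for starved WT, it was 17.7-fold lower there than in normal WT. Starved RA was 94.8-fold above that floor. The gene annotation used here (GENCODE M21) types Cxcl11 as a polymorphic pseudogene, so its reads do not show that a working chemokine is made. Cxcl9, the third ligand of Cxcr3, reached no more than 0.230 in any library. Ccl20, which attracts cells with Ccr6, went from 1.17 and 1.41 to 1.59 and 1.94 in WT, and from 1.79 and 1.59 to 7.48 and 6.57 in RA. Ccl20 rose in RA (1.57, limma BH-adjusted p = 1.13e-08), whereas its difference in WT was 0.27 (limma BH-adjusted p = 0.0686).

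Chemokine receptors were mostly low: 17 of 22 were below 1 in all libraries, 7 of them at 0. Ccr1, Ccr2 and Cxcr3 were at 0, and Cxcr4, the signalling receptor of Cxcl12, was at most 0.168. Of the 5 tested, Cx3cr1 (108 to 167) and Ccr9 overlap other genes over long spans, and Ackr4 lies within Acad11, so their rows cannot be read as receptor expression. Ackr3, which takes up Cxcl12 without signalling through G proteins, went from 1.09 and 1.05 to 0.0419 and 0.11 in WT, and from 2.07 and 1.90 to 0.705 and 0.785 in RA. It fell under starvation in both lines, by 0.94 in WT and by 0.77 in RA (limma BH-adjusted p = 4.88e-06 and 6.12e-05), as its ligand Cxcl12 did. With 2 and 6 reads of Ackr3 left in starved WT, the log2(value + 1) scale understates that fall most. The proteases Adam10 and Adam17 cut Cx3cl1 and Cxcl16 from the membrane. Adam10 fell by 0.44 in WT and by 0.21 in RA (limma BH-adjusted p = 3.61e-08 and 2.74e-04). Adam17 fell by 0.13 in WT (limma BH-adjusted p = 0.0329) and had a difference of -0.03 in RA. The span of Adam17 shares 311 bases with Iah1 on the opposite strand, and reads there cannot be told apart. Iah1 went from 420 and 579 reads to 1706 and 1872 in WT, and from 497 and 564 to 1849 and 1616 in RA. Rhbdf2, which carries Adam17 to the surface, rose by 0.27 in WT and 0.78 in RA (limma BH-adjusted p = 0.00756 and 2.72e-07).

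The IL-6 family moved in several directions. Of 6 tested ligands other than Il6, the interaction was positive for 3 and negative for 1, beside 24.5% and 26.1% of all tested genes. Lif, which signals through Lifr and gp130, went from 11.7 and 8.79 to 1.22 and 1.13 in WT, and from 12.1 and 11.4 to 8.42 and 9.09 in RA. Lif had the largest interaction of these ligands (1.97, SE 0.17, limma BH-adjusted p = 7.77e-08), since its fall was 2.36 in WT and 0.39 in RA. Of 14 receptors and signalling genes, 10 fell and 2 rose in WT, where 39.2% and 39.3% of all tested genes did. The interaction was positive for 8 of the 14 and negative for 1. Osmr, the receptor of oncostatin M, fell by 1.32 in WT and rose by 0.39 in RA (limma BH-adjusted p = 1.42e-12 and 1.86e-05). Il6ra, the receptor that binds IL-6, fell by 0.31 in WT and by 0.52 in RA (limma BH-adjusted p = 0.00451 and 6.62e-05), and its interaction of -0.21 was not called (limma BH-adjusted p = 0.181). Il6st rose in both lines, by 0.52 and 0.31. Socs3, an inhibitor that Stat3 induces, fell by 1.39 in WT and by 0.61 in RA, and Stat3 itself fell by 0.69 in WT and had a difference of -0.03 in RA.

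The factors known to switch on these genes were read from the same fit, in which 39.3% of all tested genes rose and 39.2% fell in WT, and the interaction was positive for 24.5% and negative for 26.1%. Of 14 genes of interferon production and signalling, 10 fell and 4 rose in WT, and the interaction was positive for 8 and negative for 1, with a median of 0.74. The interaction was 3.64 for Irf7, a factor that amplifies interferon production, and 2.47 for Stat2, which carries type I interferon signals to the nucleus (limma BH-adjusted p = 3.05e-15 and 2.08e-14). Stat2 fell by 1.98 in WT and rose by 0.48 in RA (limma BH-adjusted p = 3.27e-16 and 1.07e-07). Of 23 NF-κB pathway genes, 10 rose and 9 fell in WT, and the interaction was positive for 10 and negative for 5, with a median of 0.14, so in WT their counts lay near the shares of all tested genes. The NF-κB subunit Rela rose by 0.56 in WT and 0.29 in RA (limma BH-adjusted p = 4.60e-09 and 2.55e-05), while Nfkb1 fell by 1.16 and by 0.36 (limma BH-adjusted p = 2.28e-13 and 1.81e-06). Tnfaip3, an inhibitor that NF-κB induces, fell by 2.64 in WT and by 0.78 in RA, and Nfkbia fell by 0.52 in WT and rose by 0.30 in RA. Of 14 tested genes for Toll-like, IL-1 and TNF receptors, their ligands and adaptors, 10 fell and 3 rose in WT. Il1r1 fell by 2.91 and by 1.04, and Tlr3 fell by 2.44 and by 0.44 (limma BH-adjusted p = 2.58e-07 and 8.90e-05 in RA). Tlr2 fell by 1.22 in WT and rose by 0.49 in RA (limma BH-adjusted p = 2.07e-04). The ligands Tnf and Il1b did not exceed 0.087 in any library.

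Other regulators moved both ways. Of 10 AP-1 and C/EBP genes the interaction was positive for 2 and negative for 2, with a median of -0.10. Over all tested genes it was positive for 24.5% and negative for 26.1%. Atf3 rose in both lines (3.09 in WT and 2.27 in RA), and so did Cebpb (1.58 and 1.47), whose span shares 908 bases with Tmem189. Of 11 genes that act on the decay of cytokine mRNA, 7 rose and 4 fell in WT, where 39.3% and 39.2% of all tested genes did. The interaction was positive for 3 of the 11 and negative for 4. Zc3h12a, whose product (Regnase-1) cuts Il6 mRNA, fell by 0.90 in WT and rose by 0.60 in RA (limma BH-adjusted p = 7.01e-07 and 9.60e-05), the same signs as Il6. Rc3h1 and Rc3h2, which encode the Roquin proteins that promote decay, rose in WT by 0.50 and 1.05 (limma BH-adjusted p = 2.09e-06 and 9.96e-11). In RA the values of Rc3h1 went from 36.6 and 33.8 to 33.5 and 32.0 under starvation. Those of Rc3h2 went from 47.4 and 40.5 to 59.6 and 60.7, so Rc3h2 was higher in starved RA too.

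**Figure D4:**
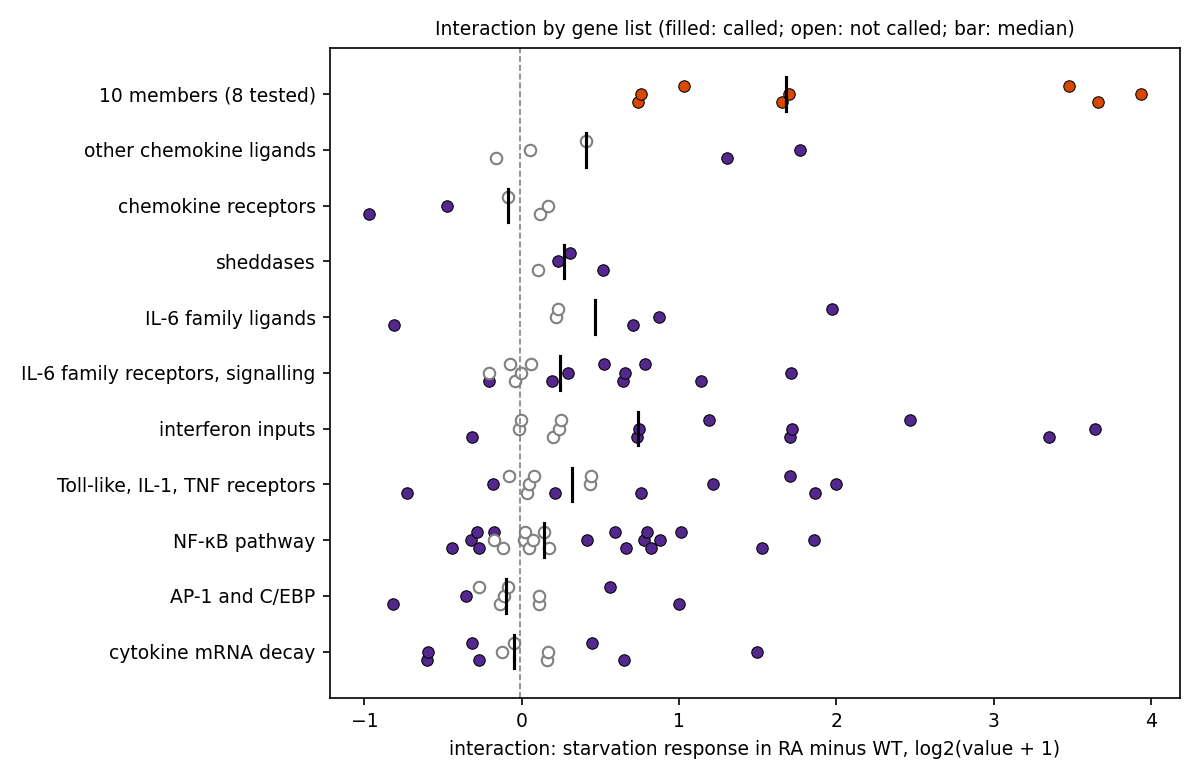
Interaction of line and medium (x axis, response in RA minus response in WT, log2(value + 1)) for each tested gene of each list, filled where called and open where not, with the list median as a bar and the median of all tested genes as a dashed line. The 8 tested members lie between 0.74 and 3.94, while the AP-1 and C/EBP and the mRNA decay lists lie on both sides of 0.

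The gene most like each tested member was the one with the highest Pearson correlation of log2 values over the 8 libraries, among genes with a mean value of at least 10. For Ccl5 it was Serpinb9b (0.999), for Ccl7 Prkg2 (0.998), for Cxcl12 Osr1 (0.999), for Cx3cl1 Prkar2b (0.999), for Cxcl16 Ttc39c (0.969) and for Il6 Parp10 (0.985). Parp10 had mean values of 21.5 in normal WT, 8.68 in starved WT, 48.8 in normal RA and 77.8 in starved RA. Osr1 had means of 86.8, 19.7, 90.4 and 42.0 in the same order, lower under starvation in both lines as Cxcl12 was. For Ccl2 and Cxcl10 the match was the gene in which each lies, Gm17268 and Art3. These rows hold the same reads: Gm17268 exceeded Ccl2 by 2 to 11 reads per library, and Art3 exceeded Cxcl10 and Cxcl11 together by 8 to 70. Among 630 gene pairs in which a gene lies inside another without shared exons, the outer gene had at least as many reads in all 8 libraries in 624, or 99%. Cxcl10 and Art3 share 133 exon bases on opposite strands, so that pair was not among the 630. The Art3 excess equalled 0.473% to 4.93% of the Cxcl10 reads, and no overlapping span was found for the 7 members other than Ccl2, Cxcl10 and Cxcl16.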

How the data were processed

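Polyadenylated RNA was sequenced from 8 MEF libraries, grouped per the labels into Pontin WT and RA in normal or glucose-free medium. Column names give the medium as a minus or plus sign, taken here as normal and glucose-free because the study uses those signs for starvation. The authors made TruSeq RNA v2 libraries, sequenced paired ends and aligned them to mm9. The submitters' processing notes also name TopHat2 (version 2.0.9), bedtools and edgeR, and the settings of read counting were not given in the sources used here. The deposited values are a signal, a gene's reads divided by a library size that was scaled for each sample (CPM). All nonzero values (100%, tolerance 0.01) were whole multiples of 1 read, so the reads were recovered. Counts from 1 to 9 were even in 78.2% to 80.5% of cases. Floors cover counting error only and take each read as a separate count. With most low counts even, a floor counted in read pairs would lie higher, so folds against a floor are not firm lower limits. The 95% intervals come from limma and rest on the spread between libraries. Among the symbols 26 had been turned into dates.

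Genes at 1 or more in at least 2 libraries were fitted with limma (version 3.58.1, R 4.3.3) on log2(value + 1), with a mean per group over all 8 libraries, eBayes with a trend and 2-sided p-values with Benjamini-Hochberg (BH) adjustment over all 16232 genes of a contrast. Calls were made below an adjusted p-value of 0.05. CPM had been planned for, and the same test was used. Fits were tested on simulated data. Alternatives changed the pseudocount, the filter, the scaling, the samples fitted, the threshold and the tool (edgeR 4.0.16 or DESeq2 1.42.0 run on the recovered reads), or left out a library. The members and gene lists were chosen with earlier results of these data known. Named genes were the members, Ruvbl1, the gene most like each member, up to 3 called genes with the largest difference per list and contrast, and receptors, sheddases and transducers of the members. Gene overlaps came from GENCODE M21 (GRCm38), which is not the build of the authors, so no coordinates of the table were used. GRCm38 positions are those of the RefSeq promoters. Some results on named genes are not reported here.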

Additional observations from a re-analysis of the deposited data

Results flagged for a closer look

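The response to glucose starvation differed between Pontin WT and Pontin RA MEFs for each of the 8 tested members when the interaction was tested (limma, BH-adjusted p under 0.05). The interactions, each positive and on the log2 scale, were 3.94 for Ccl2, 3.67 for Cxcl10, 3.48 for Ccl7, 1.70 for Ccl5, 1.65 for Cx3cl1, 1.03 for Il6, 0.76 for Cxcl12 and 0.74 for Cxcl16. A positive interaction was called for 24.5% of all tested genes.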

How the results depend on the processing

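The number of tested members called stayed within 1.5 times its main value in 105 repeats over the 5 comparisons and moved further in 4. When a 2-fold change was also required, 1 member was called between the lines in normal medium (5 in the main fit), 5 by starvation in WT (8) and 1 by starvation in RA (7). With edgeR on recovered reads at an adjusted p-value under 1e-05, 1 member was called between the lines in normal medium. Leaving out 1 library at a time gave 4 to 5 members called in normal medium, 8 each time under starvation and in the WT response, 6 to 7 in the RA response and 7 to 8 in the interaction. With a replicate block the counts were 5, 8, 8, 7 and 8, as without it. Same-numbered libraries deviated together with correlations of -0.008 to 0.157 over all genes and -0.027 to 0.303 over genes with a mean value over 10, not above 0.1 for every pair of groups, so the numbers were not taken to pair the libraries. For single members, 812 repeats kept direction and call, 49 lost the call and 6 changed sign. The sign changed for Cxcl12 in normal medium, at -3.68e-05 with quantile normalization, -0.022 with total-read scaling and -0.011 without replicate 2 of normal RA, in a range of -0.011 to 0.062 on leaving out a library. It also changed for the RA response of Cxcl16, at 9.78e-04 with edgeR on halved reads, 0.11 without replicate 1 of normal RA and 0.097 without replicate 2 of starved RA, in a range of -0.13 to 0.11. Neither difference was called in any of these fits. The call of Ccl7 in normal medium did not hold with 0.1 as the pseudocount (limma BH-adjusted p = 0.0663), with no filter (0.246), without the eBayes trend (0.216) and with median-ratio, quantile and total-read scaling (0.0628 to 0.0890). The interaction of Cxcl16 lost its call with no filter (limma BH-adjusted p = 0.134), with quantile normalization (0.0542) and without the trend (0.0676), and the RA response of Il6 lost its call with no filter (0.0872). Except where a value above shows it, the cause was not tested. Depth limits Cxcl1, Cxcl5 and Cxcl16 most, with at most 34, 48 and 130 reads.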
